A study of Mus musculus with 32 samples.

Results

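The Rhox cluster (reproductive homeobox genes on the X chromosome) was examined in the mouse stromal line EL08-1D2, of mesenchymal type, through its members Rhox5, Rhox2a, Rhox2g and Rhox2h. These 4 genes were picked by name because their transcript counts differed between cells with and without azacitidine. They are 4 of 20 Rhox entries and 4 of 21829 mouse genes in the deposited table. The series holds 16 libraries of untreated cells and 16 of cells treated with azacitidine, and n = 16 per group applies below unless another n is given. Every library comes from this single line, with no other genotype or agent, and the labels give neither the dose nor the duration of the treatment. Nothing in the labels places the libraries in separate cultures, so all p-values measure the spread between these libraries, which may be technical. Because the contrast with against without azacitidine chose the 4 genes, their own differences are described without a test.

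Azacitidine is a cytidine analogue that is built into nucleic acids and traps DNA methyltransferases, so that DNA methylation is lost as cells divide. The Rhox genes encode homeodomain transcription factors of the testis, ovary, epididymis and placenta. In most somatic cells the cluster is silent and its promoters carry DNA methylation, and this makes Rhox5 (formerly Pem) a familiar reporter of lost methylation. Rhox2, Rhox3 and Rhox4 form repeating trios that arose by tandem duplication in the mouse, whereas Rhox5 is a single gene.

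Values are unique molecular identifiers (UMIs), each of which marks a cDNA molecule that is counted once however often it is copied. Libraries held between 818619 and 3210801 UMIs without and between 1226861 and 5039721 with azacitidine. Levels are given in CPM, UMIs divided by the TMM library size (a total corrected for differences in composition) and brought to the usual common total. Of 12 stromal marker genes all had more than 3 UMIs, although Thy1, a common stromal surface marker, had 0 UMIs without and 26 with azacitidine. The 12 together stood between 9282 and 12398 CPM without and between 6669 and 10799 CPM with the drug. In the edgeR test with low counts kept, described below, 3 of the 12 rose and 3 fell. This is 50% called, against 5.60% of all tested genes. Thy1 had enough UMIs to be tested only through the treated libraries, so a rise was the only call it could give. This tilts the share upward. Lum (log2 fold change 2.38) and Thy1 were among those that rose, and Col3a1 (-0.64) and Col1a2 (-0.38) among those that fell. Libraries whose replicate numbers lie in the same run of 4 (1 to 4, 5 to 8, 9 to 12, 13 to 16) were more alike in earlier results of these data, so values within runs are given where they matter.

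The sequences just before the annotated starts are shown first, because the members were all higher with azacitidine and the drug acts on DNA methylation. Each is the 250 bases before the start of the gene in RefSeq (build GRCm38.p6, chromosome X), written 5′ to 3′ on the strand of the gene. They are Rhox5 at chrX:37754358-37754607 (plus strand), Rhox2h at chrX:37673278-37673527 (minus), Rhox2g at chrX:37643471-37643720 (minus), Rhox2a at chrX:37244742-37244991 (plus) and, as a gene of the cluster with few UMIs, Rhox4a at chrX:37265125-37265374 (plus). Capitals mark the letters CCGGAAG, the core that ETS family factors bind, which stand here in the reverse orientation. The window of Rhox4a has none.
Rhox5: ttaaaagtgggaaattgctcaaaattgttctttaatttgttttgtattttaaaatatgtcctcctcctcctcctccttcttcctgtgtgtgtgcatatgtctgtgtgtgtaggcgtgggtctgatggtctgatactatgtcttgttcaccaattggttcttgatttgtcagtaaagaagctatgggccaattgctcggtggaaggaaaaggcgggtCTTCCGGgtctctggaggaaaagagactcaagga
Rhox2h: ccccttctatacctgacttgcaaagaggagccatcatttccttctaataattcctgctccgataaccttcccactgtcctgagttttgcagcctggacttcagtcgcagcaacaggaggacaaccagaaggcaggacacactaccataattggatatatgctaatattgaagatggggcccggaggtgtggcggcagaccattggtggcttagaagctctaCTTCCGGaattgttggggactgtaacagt
Rhox2g: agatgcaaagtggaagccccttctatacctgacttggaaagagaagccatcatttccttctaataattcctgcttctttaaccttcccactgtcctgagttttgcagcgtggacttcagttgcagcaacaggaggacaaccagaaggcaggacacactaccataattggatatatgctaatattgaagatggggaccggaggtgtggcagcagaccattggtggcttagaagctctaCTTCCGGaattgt
Rhox2a: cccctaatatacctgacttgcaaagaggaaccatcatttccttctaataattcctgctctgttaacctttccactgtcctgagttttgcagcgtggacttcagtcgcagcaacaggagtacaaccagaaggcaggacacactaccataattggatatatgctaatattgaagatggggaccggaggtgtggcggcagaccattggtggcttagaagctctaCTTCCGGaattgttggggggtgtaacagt
Rhox4a: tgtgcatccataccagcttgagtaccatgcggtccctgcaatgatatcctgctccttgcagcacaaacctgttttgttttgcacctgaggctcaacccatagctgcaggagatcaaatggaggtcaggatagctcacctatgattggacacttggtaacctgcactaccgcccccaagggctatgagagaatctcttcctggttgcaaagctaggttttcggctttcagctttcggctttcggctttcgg

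The RefSeq start of Rhox5 used here lies 50.2 kb before its start in GENCODE (release M21), and the counts do not show which start the cells used. The table of RefSeq windows held 28 Rhox windows, with no entry for Rhox2f. CCGGAAG on either strand was found in the window of Rhox5 and in all 7 Rhox2 windows, and in 0 of the other 20. Among all 32851 windows of this length 6.91% held it. In Rhox2a, Rhox2c, Rhox2e and Rhox2h it ended 23 bases before the start, in Rhox2g 7, in Rhox2d 12 and in Rhox2b 45 bases before it, and in Rhox5 28 bases before it. The Rhox2 windows are near copies of each other and are not independent observations. Those of Rhox2h and Rhox2a were identical at 95.6% of 250 aligned bases and those of Rhox2g and Rhox2h at 96.2% of 234. GGGCGG, the GC box, was in 0 of 7 Rhox2 windows, in 8 of all 28 and in 32.7% of all windows. CACGTG, the E-box, was in 0 of 7, in 5 of 28 and in 6.02%. TTCCCGC, a core of E2F sites, was in 0 of 7, in 1 of 28 and in 3.82%, and TATAAA in 0 of 7, in 1 of 28 and in 12.4%. All were searched on both strands, and the GC box and TTCCCGC can share letters. A match is a description of the letters and not of a bound site.

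The windows of the members held 3 to 5 CpG, the dinucleotide at which mammalian DNA is methylated. Rhox2g held 3 CpG in 250 bases, Rhox5 held 4, and Rhox2a and Rhox2h held 5 each. The range over the 7 Rhox2 windows was 3 to 6. The median of all windows was 6, with quartiles at 2 and 16, so these starts lie at or below the middle of the distribution. Rhox4a, with 6 CpG, lay at the upper end of this range.

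Rhox5 carried most of the UMIs of the cluster in both groups. The gene encodes a homeobox factor of Sertoli cells, epididymis and placenta (ENSMUSG00000095180, chromosome X, 37804842 to 37808876, GRCm38). Without azacitidine its libraries ran from 5.06 CPM over a median of 7.81 to 10.1 CPM. With azacitidine they ran from 90.5 over 115 to 232.5 CPM. Every treated library lay above every untreated one. The share of all genes whose groups separate in this way is not given, so such separation is only a description, here and below. Over all 9344 genes that passed the default expression filter 5.65% were called between the groups, 3.65% as increased and 2.00% as decreased, which is given here as the background of a contrast that also chose the gene. In raw counts the untreated libraries held 8 to 22 UMIs each, so a low level was seen in 16 of 16 of them. The group means were 7.87 ± 1.42 (SD) and 124 ± 36.2 CPM, and the log2 fold change was 3.98 (SE 0.13). Summed over each group the gene had 212 UMIs without and 4843 with the drug, a depth-scaled ratio of 16.3 with an exact 95% interval of 14.2 to 18.8. This interval, like the others on summed UMIs, covers counting error only. A larger number of cells with the transcript and more transcript per cell cannot be told apart in these bulk libraries.

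**Figure D1:**
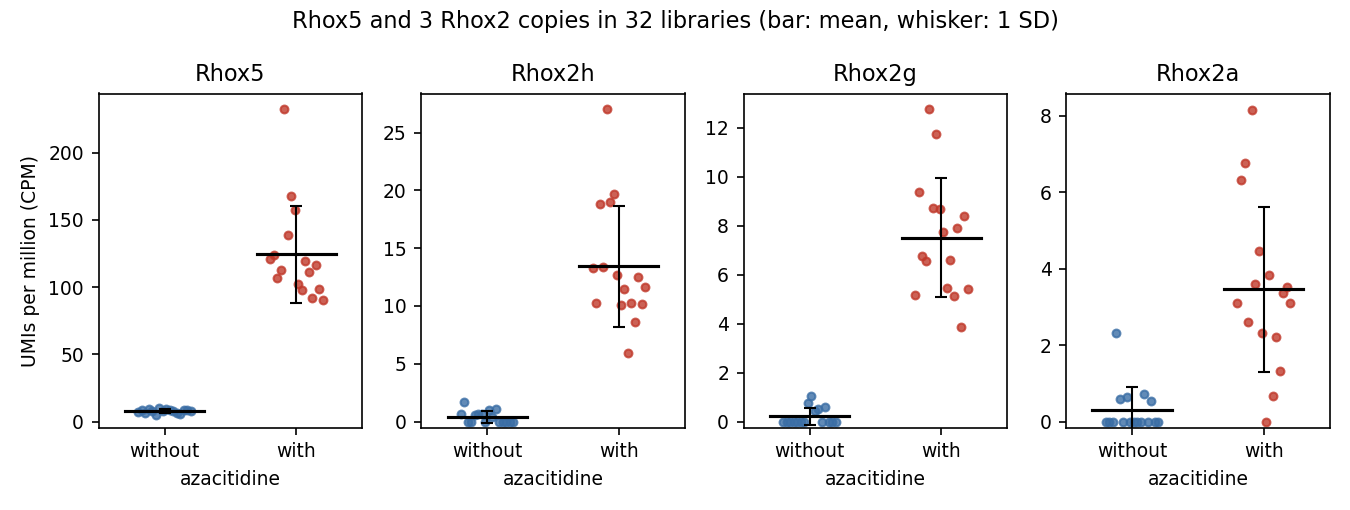
CPM (linear axes from 0) of Rhox5, Rhox2h, Rhox2g and Rhox2a for 16 untreated and 16 treated libraries. Each point is a library, the horizontal bar gives the group mean and the whisker 1 SD. Rhox5, Rhox2h and Rhox2g do not overlap between the groups, whereas Rhox2a does, with 11 of 16 treated libraries above the highest untreated one. This describes genes chosen from the same contrast.

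Rhox2h (ENSMUSG00000079627, chromosome X, 37668989 to 37673277) is the copy of Rhox2 nearest to Rhox5. It was found in 8 of 16 untreated libraries, with 0 to 4 UMIs each, and in 16 of 16 treated libraries, with 9 to 84. On the CPM scale the untreated libraries ran from 0 over a median of 0.21 to 1.70, and the treated ones from 5.93 over 12.1 to 27.0. The groups did not overlap. The log2 fold change was 4.67 (SE 0.30). The summed UMIs were 13 and 528, a depth-scaled ratio of 29.0 (interval 16.8 to 54.7).

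Rhox2g (ENSMUSG00000079629, 37639115 to 37643470) was seen as a single UMI in 5 of 16 untreated libraries. Each treated library held it, with 7 to 50 UMIs. The untreated libraries ran from 0 over a median of 0 to 1.04 CPM, the treated ones from 3.85 over 7.24 to 12.7 CPM, with no overlap. Its summed UMIs of 5 and 294 gave a ratio of 41.9 (interval 17.8 to 130). The log2 fold change was 4.97 (SE 0.33) in a fit that kept genes with low counts.

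Rhox2a (ENSMUSG00000051827, 37244976 to 37249686), at the far end of the Rhox2 repeats, overlapped between the groups. It had 0 to 2 UMIs per untreated library and was seen in 5 of 16. Treated libraries held 0 to 27 UMIs, and number 9 held none. The CPM ran from 0 over 0 to 2.32 without and from 0 over 3.24 to 8.16 with azacitidine. The highest untreated value came from 2 UMIs in the shallowest library, number 4. Summed UMIs of 6 and 144 gave a ratio of 17.1 (interval 7.67 to 47.4), and the log2 fold change was 3.72 (SE 0.46).

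The other entries of the cluster were then compared, which had not been listed with the members. To keep genes of few counts, edgeR's quasi-likelihood test was fitted to all 16458 genes with at least 10 UMIs over the 32 libraries, with Benjamini-Hochberg adjusted p under 0.05 as the call. In this fit 5.60% of genes were called, 4.57% as increased and 1.03% as decreased. Of the 16 other Rhox entries 5 had enough UMIs to be tested and all 5 rose. They were the remaining copies of Rhox2. These copies are near-identical to the members and could share reads with them, and a gene near 0 in one group passes such a filter through the other group, so the 5 are no separate support.

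Rhox2d rose from 11 to 302 summed UMIs, a log2 fold change of 4.09 (SE 0.32, edgeR adjusted p = 1.6e-13). Rhox2c rose from 4 to 124 UMIs, by 3.97 (SE 0.37, edgeR adjusted p = 2.3e-11). The treated libraries of both lay above all untreated libraries. The remaining 3 copies had at most 2 UMIs without the drug, so that their ratios are wide. Rhox2f went from 1 to 99 UMIs, a depth-scaled ratio of 70.6 with an interval of 12.4 to 2815 (edgeR adjusted p = 1.5e-10), and Rhox2b from 1 to 64, a ratio of 45.6 with an interval of 7.90 to 1830 (edgeR adjusted p = 2.7e-08). Rhox2e was the least counted copy, with 2 UMIs, both in library number 4, and 32 with azacitidine, a ratio of 11.4 with an interval of 2.91 to 98.2 (edgeR adjusted p = 0.0018). Its call was lost when all libraries were thinned to equal depth (edgeR adjusted p = 0.13) and without numbers 5 to 8 (0.094).

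The rest of the cluster held few UMIs, all of them in the treated libraries, the group with the greater total depth. Rhox1, Rhox3c, Rhox6, Rhox10 and 6 entries of Rhox4 held 0 UMIs without azacitidine and 23 with it, over all 10 genes and 16 libraries. Rhox4a had 8 of these, spread over 6 libraries, and Rhox4d had 5. The pseudogene Rhox2-ps had 0 and 8 UMIs. A count of 0 allows a level of up to 3 UMIs per group, and at such counts no fold is given. The remaining 8 genes had 1 or 2 UMIs each. A further 15 annotated Rhox genes were not analysed here.

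**Figure D2:**
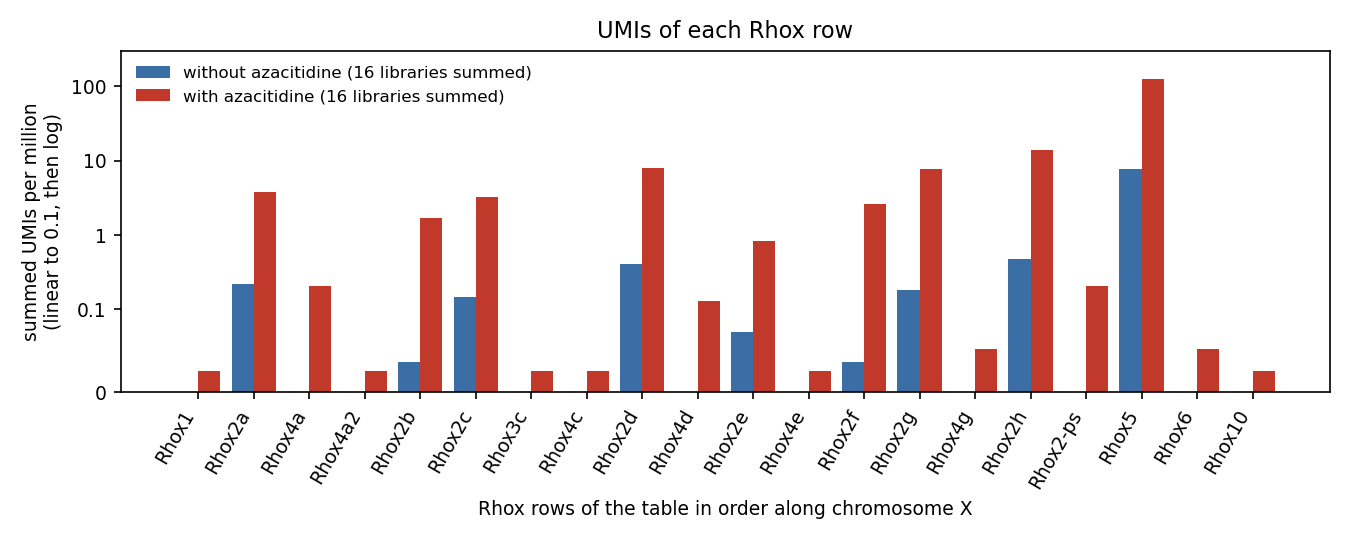
Summed UMIs of each group, scaled to its depth, of the 20 Rhox entries, in their order along chromosome X, without and with azacitidine (axis linear to 0.1, then logarithmic). Rhox5 and the 8 copies of Rhox2 carry nearly all UMIs in both groups. The 6 Rhox4 entries between the Rhox2 copies have 0 UMIs without and 18 with azacitidine.

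Rhox5 and the 8 Rhox2 copies accounted for 99.5% of the 6461 UMIs of the cluster with azacitidine and for all 255 without it. Rhox5 alone made up 83.1% without and 74.96% with the drug. The Rhox2 copies together had 43 UMIs without and 1587 with azacitidine. Their sum per library ran from 0 over a median of 2.5 to 5 UMIs without, and from 37 over 77.5 to 244 UMIs with azacitidine, with no overlap. Their summed level was 1.70 ± 1.04 CPM without and 40.4 ± 12.0 CPM with the drug. For each UMI of Rhox2 there were 4.93 of Rhox5 without and 3.05 with azacitidine. In single treated libraries this ratio lay between 2.16 and 4.89.

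The copies did not contribute equally. Of the 1587 Rhox2 UMIs with azacitidine, Rhox2h had 33.3% (exact 95% binomial interval 31.0 to 35.6), Rhox2d 19.0% (17.1 to 21.0) and Rhox2g 18.5% (16.6 to 20.5). Rhox2a had 9.07% (7.71 to 10.6), and Rhox2e was lowest with 2.02% (1.38 to 2.83). The 43 UMIs without azacitidine gave Rhox2h 30.2% (17.2 to 46.1) and Rhox2d 25.6% (13.5 to 41.2), so the order of the copies cannot be resolved in that group.

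The copies also differed in how far they can be told apart by sequence. The 8 longest transcripts were 92.9% to 99.4% identical over 28 pairs in GENCODE. Of all windows of 50 bases in the transcripts of Rhox2d, 55.3% occurred in no other gene, and the value was 50.2% for Rhox2h and 48.7% for Rhox2g. It was 8.90% for Rhox2a and 0% for Rhox2e, the least counted copy. Over whole transcripts the order of these values was not that of the UMIs. Rhox2f had 40.4% such windows and 6.24% of the UMIs, fewer than Rhox2a. Over the last 300 bases of the transcripts, Rhox2f had 8.95% such windows and Rhox2a 8.55%. There Rhox2g had 58.2%, Rhox2d 45.8% and Rhox2h 45.2%, while Rhox2b and Rhox2e had 0%. Rhox2c had 35.8% there and 7.81% of the UMIs, fewer than Rhox2a. For Rhox5 both values were 100%. How the authors treated reads that fit several copies is not given in the sources used here, so the levels of single Rhox2 copies are uncertain and the sum over the copies is the firmer value. The part of read assignment in the shares was not tested.

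**Figure D3:**
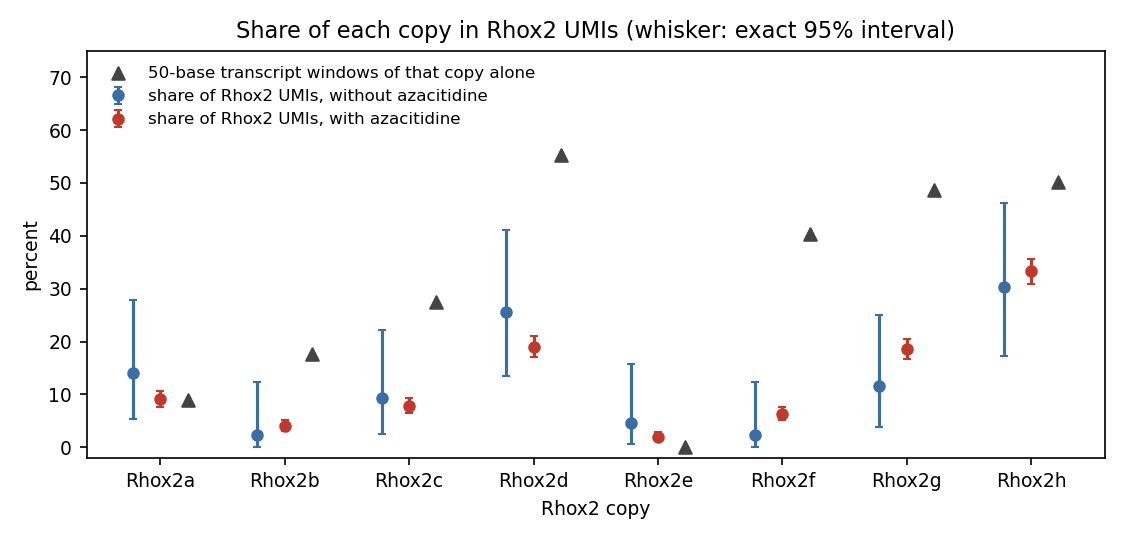
Percent of all Rhox2 UMIs that fell on each copy without (43 UMIs) and with azacitidine (1587 UMIs), with exact 95% intervals, beside the percent of 50-base transcript windows found in no other gene. Rhox2h, Rhox2d and Rhox2g are high in both, and Rhox2e is lowest in both with the drug. Rhox2f has many such windows over its whole transcripts but few UMIs. Over the last 300 bases (not drawn) it has 8.95%.

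The genes around the cluster were compared next, to show whether the difference reached beyond it. Of 38 entries within 1 Mb of the outermost Rhox genes, or between them, 26 were tested with low counts kept and edgeR called 0. At an unadjusted p under 0.05 there was 1 of the 26, beside 2587 of 16458 over all tested genes. DESeq2 and limma-voom also called 0. Their log2 fold changes ran from -0.84 (Nkrf) to 0.77 (Gm6024) with a median of 0.01. Rnf113a1, a RING finger protein gene 21.3 kb before the cluster, had 7.03 ± 1.98 CPM untreated and 7.17 ± 1.59 CPM treated (edgeR adjusted p = 1.00). Lamp2, a lysosomal membrane protein gene 95.3 kb after it, had 695 ± 105 and 705 ± 52.4 CPM (edgeR adjusted p = 0.91). Zbtb33, which encodes the methyl-CpG binding protein Kaiso and lies among the Rhox genes, had 3.07 ± 1.39 and 3.45 ± 1.57 CPM (edgeR adjusted p = 0.84). Across the rest of the X chromosome 16 of 735 tested genes rose and 15 fell, 4.22% in all, against the 5.60% over all genes.

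**Figure D4:**
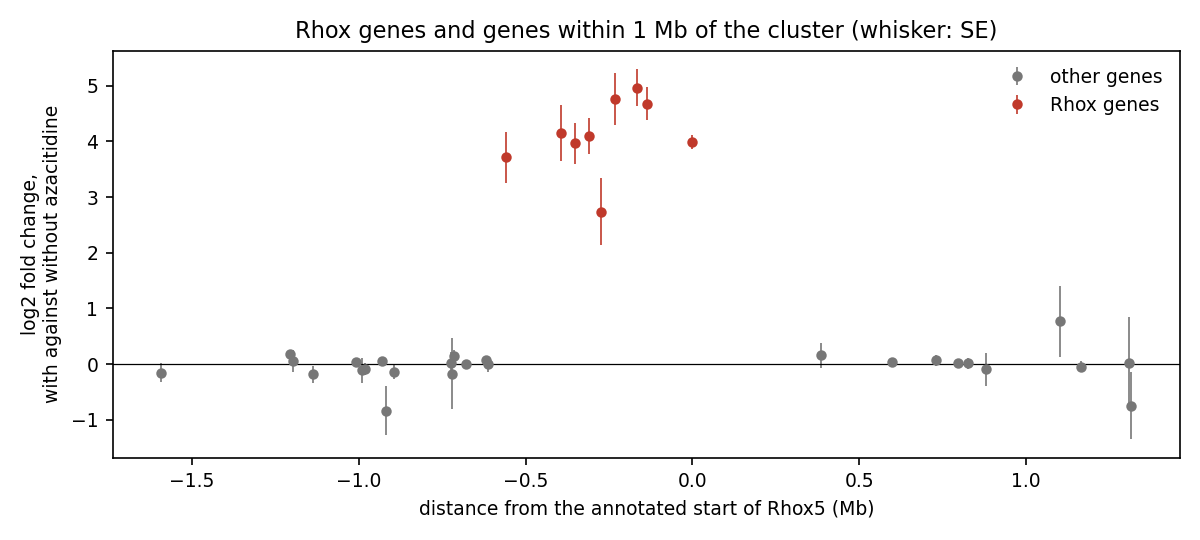
Log2 fold change (with against without azacitidine, low counts kept) of Rhox genes and of the other tested genes around them, by distance from the annotated start of Rhox5 in Mb. The 9 tested Rhox genes lie between 2.74 and 4.97, and the 26 other genes lie between -0.84 and 0.77.

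By size of the log2 fold change Rhox2h stood at rank 2 and Rhox5 at rank 6 of the 9344 genes of the default filter. With low counts kept, Rhox2g stood at rank 3, Rhox2h at 5, Rhox5 at 28 and Rhox2a at 45 of 16458 genes. These ranks describe the contrast that chose the genes.

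Germline genes on other chromosomes, which like Rhox are usually methylated and silent in somatic cells, rose as well. Of 33 genes in a list drawn up for this purpose 29 had entries and 19 were tested. Of these 14 rose and 0 fell, where 4.57% of all tested genes rose, and the median log2 fold change was 2.51 against 0.03 over all genes. Most of the 19, and most of the 14 that rose, reached 10 UMIs only through the treated libraries. Among them were Dpep3 with 0 and 42 UMIs, Mov10l1 with 0 and 24, and also Tex19.1 and Tuba3b, described below. A fall could hardly be called for such genes, which tilts the count and the median upward. The list was chosen with results of these data known and is no independent evidence of a direction. Gtsf1, a piRNA pathway factor, rose from 15 to 433 UMIs (log2 fold change 4.23, SE 0.28). Sohlh2, which regulates transcription in differentiating germ cells, rose from 18 to 381 UMIs (3.82, SE 0.26), and Tex19.1, a protector against retrotransposons, from 4 to 199 UMIs (4.63, SE 0.42). Tuba3b, a testis tubulin, rose from 8 to 143 UMIs (3.47, SE 0.34). Germline genes of the X chromosome outside Rhox gave 0 calls among 8 tested by edgeR, with 4 at an unadjusted p under 0.05 and a median of 0.78. This count was not stable: it was 1 with limma-voom, with a replicate block, with the runs as a term, without numbers 1 to 4 and without the 5 libraries that stood apart in earlier results, and 2 with spike-in scaling. All 8 belong to few families, 7 of them to Xlr. Other paired-like homeobox genes, the class to which Rhox belongs, gave 0 calls among 8 tested by edgeR, with 1 at an unadjusted p under 0.05 and a median of 0.08. Over all tested genes 2587 of 16458 had an unadjusted p under 0.05, the background for both such counts.

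The genes that write and read silencing marks were mostly without a call. Dnmt1, the maintenance methyltransferase and a target of the drug at the protein level, had 43.3 ± 4.80 CPM untreated and 40.6 ± 5.20 CPM treated (edgeR adjusted p = 0.63). Uhrf1, its partner at replicating DNA, had 33.6 ± 5.29 and 30.9 ± 6.83 CPM (edgeR adjusted p = 0.71). Dnmt3a and Dnmt3b, the enzymes that set new methylation, had 7.99 ± 3.24 and 6.91 ± 2.37 CPM (edgeR adjusted p = 0.70) and 34 and 50 UMIs (0.98). Of 26 genes in this list 2 rose and 0 fell, 7.69% called, near the 5.60% over all genes, with a median of -0.02. At an unadjusted p under 0.05 there were 8 of the 26, beside 2587 of 16458 over all tested genes. With a replicate block, and also with the runs as a term, 3 rose and 1 fell. Suv39h2, a histone H3 lysine methyltransferase best known from testis, rose by 1.39 (SE 0.29, edgeR adjusted p = 0.0012), and E2f6, a repressor of germline genes, by 0.55 (SE 0.16, edgeR adjusted p = 0.030). Without numbers 5 to 8 both calls were lost (edgeR adjusted p = 0.094 and 0.10), at log2 fold changes of 1.07 and 0.54. Both were also lost when libraries were thinned to equal depth, at 1.28 and 0.66, and that of E2f6 without the library of lowest depth in each group (number 4 untreated, number 16 treated, edgeR adjusted p = 0.056), without numbers 1 to 4 and without the 5 libraries that stood apart in earlier results (numbers 1 and 2 untreated, 1, 2 and 4 treated).

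Candidate activators of Rhox genes, ETS factors and nuclear receptors among them, gave 1 increased and 1 decreased gene of 22 tested, with a median of -0.09. The share called, 9.09%, was near the 5.60% over all genes and is no result about the list. Nr5a1, a nuclear receptor of steroid-producing and Sertoli cells, rose from 3 to 49 UMIs (3.01, SE 0.46, edgeR adjusted p = 5.8e-06). Ets2, a broadly expressed ETS factor, fell by 0.27 on the log2 scale (SE 0.06, edgeR adjusted p = 0.00091). Scaling to the spike-in RNAs put the median of all genes at 0.32 and moved Ets2 with it, to 0.040, which is still below that median. Gabpa, an ETS factor that binds CCGGAAG, was named after its values were seen and had 20.1 ± 3.35 CPM untreated and 18.9 ± 4.52 CPM treated (edgeR adjusted p = 0.73).

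Markers of cells that normally express Rhox genes, and of cells that could be mixed in, were summed per library. Of 12 Sertoli markers 7 had entries, which together stood between 137 and 220 CPM without and between 111 and 226 with azacitidine, and Dhh had at most 3 UMIs. Most of this sum was Sox9, with a mean of 158 CPM without and 155 CPM with the drug. Of 6 tested Sertoli markers 1, Nr5a1, rose, where 4.57% of all tested genes rose. Nr5a1 passed the filter only through the treated libraries, and a single gene is no result about the list. Of 12 trophoblast markers 9 had entries, at 361 to 720 and 381 to 623 CPM, most of it Prl2c2, a placental hormone gene that fell by 0.36 on the log2 scale (edgeR adjusted p = 0.032). The sum hides 2 keratins of simple epithelia that rose: Krt8 went from 50 to 2391 UMIs (log2 fold change 5.00, SE 0.15) and Krt18 from 36 to 1321 UMIs (4.63, SE 0.19). Of 4 tested trophoblast markers 2 thus rose and 1 fell, 75% called against 5.60% of all tested genes. Gata3, the other tested marker, was not called (log2 fold change -0.01, SE 0.14, edgeR adjusted p = 0.99). Hand1, Prl3d1 and Tpbpa had at most 3 UMIs. Of 12 pluripotency markers 5 had entries, at 4.15 to 49.2 and 8.80 to 65.7 CPM, with Sox2 and Dppa5a at 3 UMIs or fewer. Of 8 endothelial markers 6 had entries, at 8.26 to 19.4 and 12.1 to 20.9 CPM, with Tek at 3 or fewer. Of 3 tested, 1, Emcn, rose, from 1 to 18 UMIs (edgeR adjusted p = 0.0081). Emcn reached 10 UMIs only through the treated libraries, so a rise was the only call it could give. Of 12 blood markers 8 had entries, and their sum did not overlap between the groups, at 12.9 to 21.99 CPM without and 29.4 to 45.7 with the drug. All 4 tested blood markers rose, where 4.57% of all tested genes rose with low counts kept. Fcer1g reached 10 UMIs only through the treated libraries, which tilts this count upward. Cd53, a leukocyte tetraspanin, went from 199 to 521 UMIs, Cd68, a macrophage protein, from 216 to 621, the Fc receptor subunit Fcer1g from 4 to 65 and the globin Hba-a1 from 36 to 204. Of the other blood markers Spi1 and Hbb-bs had 3 UMIs or fewer, and Ptprc (CD45) had 1 and 4 UMIs. The part of the keratins and blood markers in the Rhox values was not tested.

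Treated libraries differed from each other in Rhox5 by more than counting alone gives. The SD over the 16 was 36.2 CPM, against 8.02 from counting. Without azacitidine the SD was 1.42 CPM, below the 2.26 that counting gives. For Rhox2h with the drug the SD was 5.26 against 2.65 CPM, for Rhox2a 2.167 against 1.38, and for Rhox2g 2.42 against 1.98.

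Much of the Rhox5 spread lay between runs of replicate numbers. Numbers 5 to 8 had 174 ± 40.8 CPM (SD, n = 4) with azacitidine, and all 4 lay above the 12 others, at 139 to 232.5 CPM against at most 124. Numbers 1 to 4 had 116 ± 7.59, numbers 9 to 12 had 108 ± 9.63 and numbers 13 to 16 had 99.3 ± 12.0 CPM. Without the drug the same runs had 7.90, 7.66, 8.14 and 7.79 CPM, with no such difference in level. The log2 fold change within runs was 3.90, 4.48, 3.71 and 3.66 in order of the numbers. Rhox2h was highest in the same run, with means of 13.9, 19.6, 9.43 and 10.7 CPM with azacitidine, and so was Rhox2g with 6.96, 10.5, 6.23 and 6.39. Rhox2a was not, with 4.70, 4.63, 1.67 and 2.83. The sum over the Rhox2 copies was 56.3 ± 11.5 CPM in numbers 5 to 8 and 41.1 ± 5.88 in numbers 1 to 4, with overlap, against 29.8 ± 4.53 and 34.5 ± 1.97 in the later runs. The labels do not say what, if anything, the runs share, and no test was made between them.

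**Figure D5:**
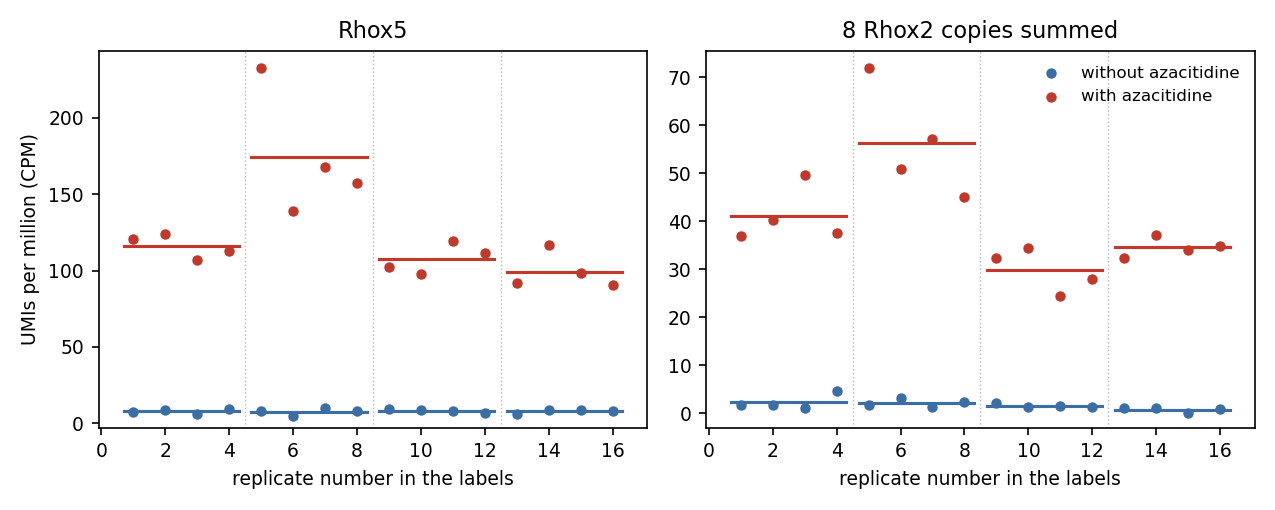
CPM of Rhox5 and of the summed Rhox2 copies in each library by replicate number, without and with azacitidine. With the drug Rhox5 stands at 139 CPM or more in numbers 5 to 8 and at 124 or less in the 12 others, and the untreated libraries lie near the bottom throughout.

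Whether Rhox5 and Rhox2h moved together between libraries of 1 group was asked with log2(CPM + 1). Over the 16 treated libraries Pearson's r was 0.67 (permutation p = 0.00501, 0.020 adjusted over 4 tests) and Spearman's rho 0.60 (permutation p = 0.016, 0.032 adjusted). Without numbers 7 and 5, the farthest from the median of Rhox5, r was 0.29 and rho 0.40 over 14 libraries. Without numbers 5 to 8, r was 0.0082, so the relation rests on that run, and runs of 4 libraries are too few for a value of their own. Over the 16 untreated libraries r was 0.23 (permutation p = 0.39) and rho 0.26 (permutation p = 0.32, 0.39 adjusted for both), at 0 to 4 UMIs of Rhox2h per library. Without 2 libraries these were 0.34 and 0.35. All permutation tests were two-sided.

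Among the 9343 other genes of the default filter, the 5 whose log2 CPM was most like that of Rhox5 over the 16 treated libraries were Selenoh (Pearson r 0.90), Apoe (0.89), Acot13, H2afz and Commd8 (0.87 each). Rhox2h stood at rank 150. In the untreated libraries the same 5 had r of -0.05, 0.02, -0.06, -0.09 and 0.30. The points share the runs: all 5 genes had a higher mean in treated numbers 5 to 8 than in the 12 others, for example Apoe, an apolipoprotein, with 142 against 64.3 CPM. Apoe rose with azacitidine by 2.86 (SE 0.22, edgeR adjusted p = 1.3e-11), and the other 4 were not called (edgeR adjusted p between 0.35 and 0.88).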

How the data were processed

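RNA of 32 libraries of EL08-1D2 cells, 16 per group, was counted as UMIs. The authors deposited whole-number counts per gene for all libraries in a single table, per the file headers. STAR 2.4.0, bedtools 2.17.0 and the build mm10 are named in the submitters' processing notes. The annotation, the strand setting and the treatment of multiply mapped reads are not given in the sources used here. The table held 21829 mouse genes, of which 21506 matched a GENCODE M21 symbol, and 68 spike-in RNAs (0.106% of UMIs), which were kept out of library sizes. Median depth was 1619400.5 UMIs without and 1966208.5 with azacitidine, and shares and ratios carry exact 95% intervals for counting error.

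Counts were fitted with edgeR 4.0.16 (R 4.3.3, TMM, robust quasi-likelihood, Benjamini-Hochberg adjusted p under 0.05), with its default filter and with a minimum of 10 UMIs over all libraries, which Rhox2a, Rhox2g and the lists need. The test was checked on simulated data. Alternatives used DESeq2 1.42.0 and limma 3.58.1. Genes named are the members, other Rhox genes with at least 10 UMIs, Dnmt1, Dnmt3a, Dnmt3b, Uhrf1, up to 4 called genes per list in order of p, the nearest neighbours and the 5 genes most like Rhox5. The members and lists were chosen with earlier results of these data known. Replicate numbers occur in both groups but 12 of 16 same-numbered pairs, not all, correlated above 0.1, so they were not used as pairs. No 2 libraries agreed within sampling noise.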

Additional observations from a re-analysis of the deposited data

How the results depend on the processing

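Rhox5 kept its direction under every alternative run, with a log2 fold change between 3.76 and 4.35, the highest with spike-in scaling, which moved the median of all genes by 0.31. Rhox2a lay between 2.92 and 4.14 and Rhox2g between 4.13 (limma-voom) and 5.30. Rhox2h lay between 4.43 and 5.05 in the alternatives where it passed the default filter. It did not pass when libraries were thinned, without numbers 1 to 4 or without the 5 libraries that stood apart. Of the other Rhox genes 4 or 5 were called under each alternative, and 0 flanking genes. The genes called by the default filter, 528, became 901 with a replicate block, 268 when thinned, 992 with the runs as a term, 860 with no filter and 297 at an adjusted p under 0.01. With low counts kept, 921 became 537 when thinned, 1413 with the runs as a term and 564 at 0.01. With spike-in scaling the split of 341 increased and 187 decreased became 354 and 1, and with low counts kept that of 752 and 169 became 947 and 7. On the X chromosome 31 became 19 without numbers 5 to 8, an alternative chosen after seeing the data, 20 with a mean of at least 5 UMIs, 18 with the default filter and 20 at 0.01. Ets2 stood at 0.040 with spike-in scaling, which put the median with low counts kept at 0.32, so Ets2 was still below that median. The relation of Rhox5 and Rhox2h with the drug fell to an r of 0.0082 without numbers 5 to 8. Libraries of the same replicate number had a median correlation of 0.18, against -0.0086 for other pairs, so the numbers carry some shared structure. It was uneven, with pair correlations from -0.29 to 0.83, and 4 of 16 untreated libraries correlated best with their own number. The cause of these shifts was not tested. Low depth limits the single Rhox2 copies without azacitidine, at 1 to 13 UMIs each.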
